A study of Mus musculus with 6 samples.

Results

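The nuclear genes of the mitochondrial respiratory chain and ATP synthase were examined in 6 stable clones of NIH3T3, an immortalized fibroblast line from embryos of NIH Swiss mice. Members were all array probes whose gene symbol started with Nduf, Uqcr, Cox4 to Cox8 or Atp5, or was Sdha, Sdhb, Sdhc or Sdhd. This gave 135 of 45281 probes and 87 of 19057 named genes. By symbol they were 44 genes of complex I, 4 of complex II, 7 of complex III, 16 of complex IV and 16 of complex V. The rule reads symbols and no measured value, but it was chosen with earlier results of these data known. Apart from the pseudogene symbol Ndufs5-ps, the symbols name mitochondrial products, and no symbol of the rule names a cytosolic enzyme. Of the 87 genes, 77 name subunits. The other 10 are the complex I assembly factors Ndufaf1 to Ndufaf8, the pseudogene symbol Ndufs5-ps and the supercomplex factor Cox7a2l. Ndufa4 is counted by its symbol with complex I, although its product is now placed in complex IV.

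The 3 FEAT clones, FEAT-3, FEAT-15 and FEAT-20, carried the human FEAT open reading frame in pEF-DEST51, driven by the elongation factor 1 alpha promoter. FEAT, also known as METTL13, is a methyltransferase of the translation elongation factor eEF1A. Selection of these clones with blasticidin S (10 µg/ml) lasted 7 days, and they were picked for a high FEAT protein level, so FEAT level is part of how they were chosen. The 3 control clones, ΔccdB-1, ΔccdB-2 and ΔccdB-3, carried the same vector without its ccdB gene and without FEAT; the labels do not say how they were selected. Each clone is a separate line and was measured once, on 1 one-colour Illumina bead array of total RNA, so n = 3 clones per group throughout. The mean intensity per array lay between 616 and 735, and 36.9% to 39.8% of probes exceeded a background limit set per array from its dimmest probes. Of 13 fibroblast markers 12 were above this limit on all 6 arrays, against 1 of 6 epithelial, 2 of 8 skeletal muscle, 1 of 6 adipocyte, 0 of 5 endothelial and 1 of 5 leukocyte markers. The fibroblast markers summed to intensities of 76501 to 91700 in the control clones and 89797 to 102474 in the FEAT clones. Of 12 fibroblast markers tested 10 had a higher mean in the FEAT clones, at a median log2 difference of 0.31. None was called at an adjusted p under 0.05 (limma), where 0.225% of all genes were. An unadjusted p under 0.05 was reached by 5 of the 12 (41.7%), all higher, against 10.1% of all genes. The groups did not overlap for 4 (33.3%), all higher, against 7.95% of all genes in that direction. Their median against the control mean was 0.36 in FEAT-3, 0.54 in FEAT-15 and 0.018 in FEAT-20, and -0.057 to 0.036 in the control clones. The skeletal muscle markers summed to 1089 to 1214 in the control clones and 1076 to 1103 in the FEAT clones, and the adipocyte markers to 5307 to 6215 and 4060 to 5366. Of 4 muscle markers tested 3 had a lower mean in the FEAT clones, at a median of -0.32. Both adipocyte markers tested were lower too, at a median of -0.28, and 0 of either list were called. The FEAT clones lay below the control clones with no overlap for 2 muscle markers and 1 adipocyte marker. This is 50% of those tested in each list, against 7.24% of all genes. The part of these markers in the results was not tested.

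As background, the respiratory chain is a series of protein complexes in the inner mitochondrial membrane. Complex I takes electrons from NADH and complex II takes them from succinate. Complex III passes them from ubiquinol to cytochrome c, and complex IV passes them to oxygen. Complexes I, III and IV pump protons, and complex V, the ATP synthase, lets them flow back to make ATP. Most subunits are encoded in the nucleus and a small core in mitochondrial DNA, so the complexes are built from both genomes. The transcription factors NRF1, GABPA, which belongs to the ETS family, and YY1 are known regulators of many of the nuclear genes.

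Promoter windows, from 250 bases before to 50 bases after a transcript start, were read from RefSeq (GRCm38.p6) for 72 of the 87 member genes, 77 windows in all. Letters known from NRF1 sites, GCGC and TGCGC parted by any single base, were found on either strand in 24.7% of these windows and in 6.38% of 21263 windows of protein-coding genes. The ETS letters CCGGAAG were found in 23.4% of member windows and in 11.6% of protein-coding ones, and the YY1 letters ATGGCGGC in 10.4% and 3.02%. At least 1 of the NRF1 or ETS motifs was in 42.9% of member windows and in 16.7% of protein-coding ones. Windows are given of Sdhb, Uqcr11 and Atp5c1, which hold a motif, and of Ndufv1, the member with the highest difference, which holds none. The first 3 had the smallest p of their complex among members with a window and above background on all arrays. The same rule took Ndufv3 (difference -0.41) for complex I and Cox7b (-0.31) for complex IV. Their windows hold no motif and are not printed, nor is another Atp5c1 window without a motif. Whether a motif goes with the difference was not tested. Capitals mark the motif, and each window is written 5′ to 3′ along its gene.
Sdhb, chr4:140961021-140961320, plus strand: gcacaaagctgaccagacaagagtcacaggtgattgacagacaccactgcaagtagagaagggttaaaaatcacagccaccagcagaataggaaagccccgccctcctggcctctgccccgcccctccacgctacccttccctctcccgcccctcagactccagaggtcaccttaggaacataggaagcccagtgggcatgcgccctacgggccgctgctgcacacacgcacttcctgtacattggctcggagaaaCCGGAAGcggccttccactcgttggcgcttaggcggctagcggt
Uqcr11, chr10:80406772-80407071, minus strand: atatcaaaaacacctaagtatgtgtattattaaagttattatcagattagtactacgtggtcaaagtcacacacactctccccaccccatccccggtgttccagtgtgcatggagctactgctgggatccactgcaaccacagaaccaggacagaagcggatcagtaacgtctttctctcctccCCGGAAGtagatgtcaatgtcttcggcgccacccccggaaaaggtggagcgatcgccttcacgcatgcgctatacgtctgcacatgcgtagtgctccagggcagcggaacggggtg
Atp5c1, chr2:10080383-10080682, minus strand: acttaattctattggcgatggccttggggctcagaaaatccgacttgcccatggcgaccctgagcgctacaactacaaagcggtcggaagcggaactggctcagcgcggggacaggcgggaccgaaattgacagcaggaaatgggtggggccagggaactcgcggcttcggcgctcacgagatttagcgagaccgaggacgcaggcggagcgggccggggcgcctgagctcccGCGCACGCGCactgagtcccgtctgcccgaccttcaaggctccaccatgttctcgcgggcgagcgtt
Ndufv1, chr19:4012706-4013005, minus strand: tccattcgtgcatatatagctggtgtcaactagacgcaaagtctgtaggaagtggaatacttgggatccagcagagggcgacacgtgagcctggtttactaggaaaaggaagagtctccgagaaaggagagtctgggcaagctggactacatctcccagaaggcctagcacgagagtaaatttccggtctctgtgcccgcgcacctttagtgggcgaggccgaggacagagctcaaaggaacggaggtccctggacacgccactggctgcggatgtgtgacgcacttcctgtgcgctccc
The Sdhb and Uqcr11 windows hold 1 ETS match each and the Atp5c1 window holds 1 NRF1 match, read on the reverse strand. A match is a run of letters and does not show binding, and the absence of a match says only that these letters are not in the window.

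The first comparison asked whether the members differed in level between fibroblasts with and without the FEAT insert. Of the 87 genes, 81 had a probe among those tested, and 76 had a probe above background on all 6 arrays. With 1 probe per gene, 66 of the 81 members (81.5%) had a lower mean in the FEAT clones, against 48.4% of all 13315 genes tested. Their median log2 difference, FEAT minus ΔccdB, was -0.13, a ratio of 0.916, against 0.0071 for all genes. The quartiles of the members were -0.20 and -0.048, and the 76 above background on all arrays lay between -0.41 and 0.34. No single member passed the threshold of an adjusted p under 0.05, where 0.225% of all genes did (limma, Benjamini-Hochberg over all probes; smallest adjusted p of a member gene above background on all arrays 0.452, and 0.421 for Cox8b, which was below background on every array). An unadjusted p under 0.05 was reached by 4 members, all lower, which is 4.94% of them, against 10.1% of all genes and 4.94% of them for the lower direction alone. Over all 119 tested member probes, which stand for 81 genes, 0 were called, where 0.184% of all 27169 probes tested were. An unadjusted p under 0.05 (limma) was reached by 11 of the 119 member probes, all with a lower mean in the FEAT clones. Over all probes 9.08% reached this p in either direction, and that share was not split by direction. A gene with several probes can count more than once among the 11.

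**Figure D1:**
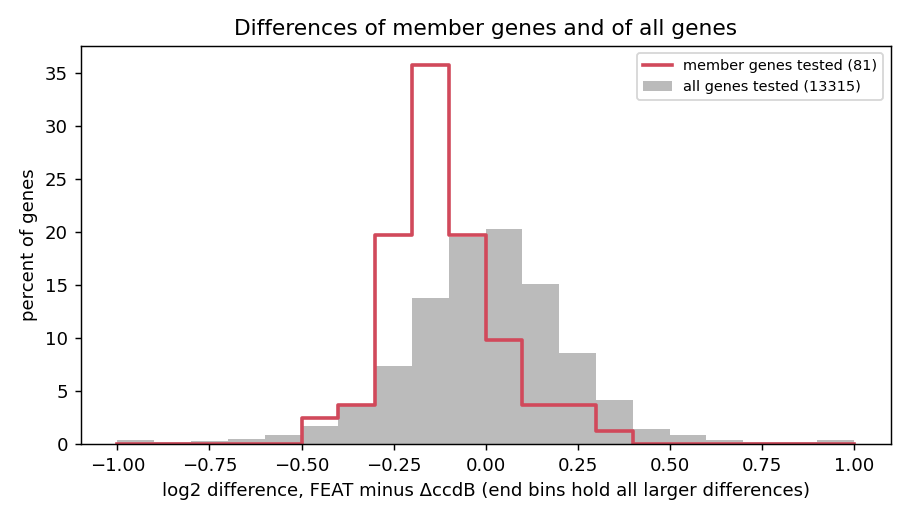
Percent of genes (y) by log2 difference, FEAT minus ΔccdB (x, bins of 0.1), for the 81 member genes (line) and all 13315 genes tested (bars). The members centre on -0.13 and all genes on 0.0071, and no member lies beyond -0.46 or 0.34.

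Most members are bright on the array, and 61 of the 81 were above the upper quartile of signal over genes. Above it the median of all genes was 0.0033 and that of the members -0.13, with 51 of the 61 lower. The groups did not overlap for 15 members that were lower in all 3 FEAT clones, 18.5% of the 81, against 7.24% of all genes. Above the upper quartile of signal the groups did not overlap in this direction for 13 of the 61 members (21.3%), against 9.04% of all genes there. They did not overlap in the other direction for 1 member, Ndufv1, or 1.23%, against 7.95% of all genes. Cox8b, at background, is among the 15, and 14 of the 15 were above background on all arrays. The 15 were Ndufa6, Ndufa10, Ndufaf8, Ndufb11, Ndufs4, Ndufv2, Ndufv3, Sdhb, Uqcrc2, Cox6c, Cox8b, Atp5c1, Atp5g3, Atp5j and Atp5j2. For Ndufb11 the difference was -0.21 on the probe used but -0.0022, with overlap, on its other probe. That other probe was above background on 2 control and 2 FEAT arrays. The members varied somewhat less between clones of a group than all genes did. Their median residual SD was 0.14 on the log2 scale, against 0.18 over all genes. Above the upper quartile of signal it was 0.13 for members and 0.15 for all genes. The median SE of a member's difference was 0.14, and the 95% intervals of all 81 members lay within -0.85 and 0.71.

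The control clones were not alike in these genes. Set against the mean of the 3 control clones, the median member stood at 0.060 in ΔccdB-1, 0.045 in ΔccdB-2 and -0.11 in ΔccdB-3. In FEAT-3, FEAT-15 and FEAT-20 it stood at -0.14, -0.14 and -0.072. ΔccdB-3 thus lay below FEAT-20, and the groups overlapped in this median. Over all genes the same medians lay between -0.0030 and 0.013. In ΔccdB-3 70 of the 81 members were below the control mean, as were 68 in FEAT-3, 68 in FEAT-15 and 53 in FEAT-20, but 21 in ΔccdB-1 and 28 in ΔccdB-2. The lower of ΔccdB-1 and ΔccdB-2 was above ΔccdB-3 for 57 of 81 members (70.4%), against 32.9% of all genes. The highest of the 6 levels was in ΔccdB-1 for 38 members, in ΔccdB-2 for 27, and in ΔccdB-3 for 1. Without ΔccdB-3 the median difference was -0.18, with 73 of 81 members lower, and without ΔccdB-1 it was -0.081, with 63 lower. In both cases 0 members were called. Without ΔccdB-1 the count over all probes was 0 as well, so the 0 there says nothing about the members in particular.

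**Figure D2:**
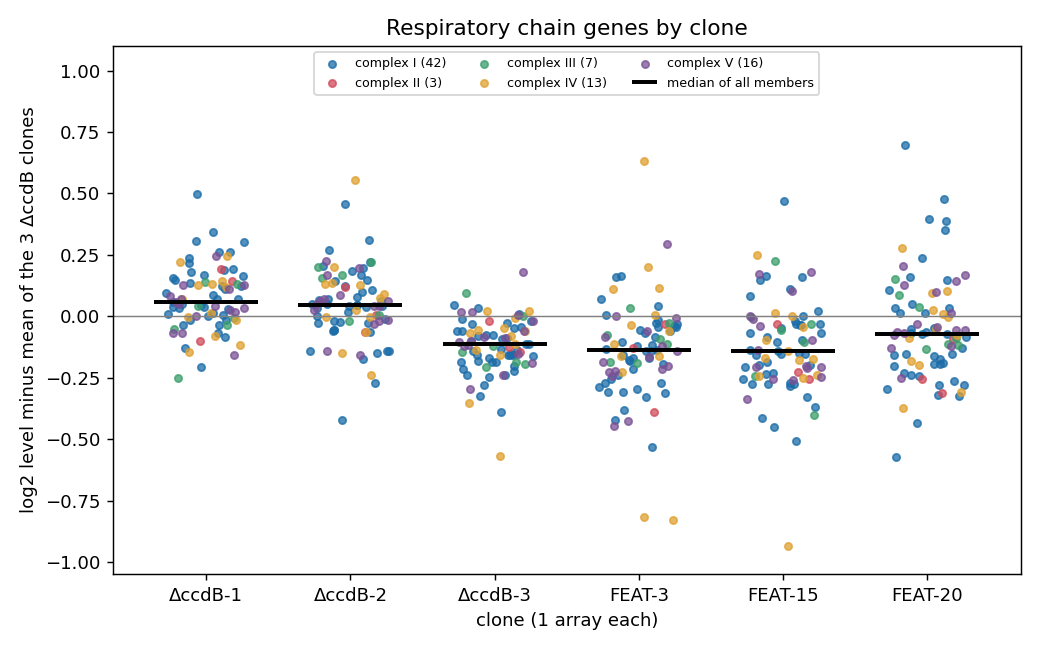
Log2 level of each of the 81 tested member genes minus its mean in the 3 ΔccdB clones (y) for every clone (x); points are genes coloured by complex and black lines are medians over the members. The median lies at 0.060 and 0.045 in ΔccdB-1 and ΔccdB-2 and between -0.14 and -0.072 in the other 4 clones, ΔccdB-3 included.

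All 5 complexes had a negative median, and the values lay close together. The median was -0.13 over 42 genes of complex I, -0.14 over 3 of complex II, -0.10 over 7 of complex III, -0.10 over 13 of complex IV and -0.12 over 16 of complex V. Of these genes 35, 3, 5, 10 and 13 had a lower mean in the FEAT clones. Leaving out 1 clone at a time gave -0.20 to -0.076 for complex I, -0.20 to -0.12 for complex II and -0.10 to -0.036 for complex III. For complex IV it gave -0.15 to -0.062 and for complex V -0.16 to -0.065. The values nearest 0 came without ΔccdB-1 for complexes I and IV, without ΔccdB-2 for complexes II and III, and without FEAT-3 for complex V.

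Within complex I the core subunits, which hold the flavin and iron-sulfur centres, had differences of both signs, and the accessory subunits were mostly lower. Of 28 accessory genes tested 25 had a negative difference, with a median of -0.14. Of 5 core genes 3 had a positive one, with a median of 0.044, and whether the core and accessory genes differ was not tested. Ndufv1, the core subunit that binds NADH and flavin, read normalized log2 levels of 12.94, 13.05 and 12.95 in ΔccdB-1, ΔccdB-2 and ΔccdB-3. It read 13.14, 13.13 and 13.68 in FEAT-3, FEAT-15 and FEAT-20. Every FEAT clone was above every control clone, and FEAT-20 stood highest. The difference was 0.34 (SE 0.16, 95% interval -0.025 to 0.70) and did not pass (limma, adjusted p = 0.584). Without FEAT-20 it was 0.15. Its partner in the flavoprotein part, Ndufv2, went the other way, with 13.24, 12.89 and 13.00 in the control clones and 12.73, 12.84 and 12.78 in the FEAT clones. That difference was -0.26 (adjusted p = 0.615). The remaining core genes Ndufs3, Ndufs7 and Ndufs8 had differences of -0.048, 0.044 and 0.059 with overlapping groups and a sign that turned with 1 clone left out, and the probe of Ndufs1 was not above background on any array.

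Among the accessory subunits, Ndufv3, a small protein bound to the flavoprotein part, had the lowest difference in complex I. It read 12.88, 12.45 and 12.53 in ΔccdB-1 to ΔccdB-3 and 12.09, 12.12 and 12.43 in FEAT-3, FEAT-15 and FEAT-20. FEAT-20 stood just below the lowest control clone, ΔccdB-2, and the groups did not overlap. The difference was -0.41 (SE 0.16, limma, adjusted p = 0.452), with -0.34 and -0.19 on the other probes of the gene. Ndufa6, an accessory subunit of the LYR motif family, read 12.70, 12.62 and 12.34 in the control clones and 12.25, 12.28 and 11.98 in the FEAT clones. Its difference was -0.38 (SE 0.15, adjusted p = 0.453), and here ΔccdB-3 lay nearer to FEAT-15 than to the other control clones. Ndufs4, needed for a stable NADH-binding part of the complex, had 4 probes, and all 4 agreed in size. They gave -0.28, -0.33, -0.28 and -0.29, with the 3 FEAT clones below the 3 control clones on 3 of them. Its brightest probe read 12.90, 12.90 and 12.75 against 12.43, 12.65 and 12.62 (adjusted p = 0.560).

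A few accessory genes had positive differences. Ndufa8 stood at 0.27 and 0.25 on its probes and Ndufa5 at 0.20 and 0.071, and the groups overlapped for both. Ndufb8 gave 0.14 on one probe and -0.22 on the other. Ndufc2 gave -0.45 on a dim probe that was above background on 5 of 6 arrays (unadjusted p = 0.00754, adjusted p = 0.318), the smallest p of any member probe, but -0.11 on its brightest probe. Ndufa4 read 14.22, 14.39 and 13.95 in the control clones and 13.93, 14.03 and 14.20 in the FEAT clones, so FEAT-20 lay among the controls (difference -0.13). Of the assembly factors, 6 of 7 tested had a negative difference, with a median of -0.13. Ndufaf8, which helps to build the complex and is no part of it, read 10.74, 10.51 and 10.69 against 10.36, 10.39 and 10.35. The groups did not overlap, and the difference was -0.28 (SE 0.13, adjusted p = 0.557). Ndufaf6 was not above background on any array.

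**Figure D3:**
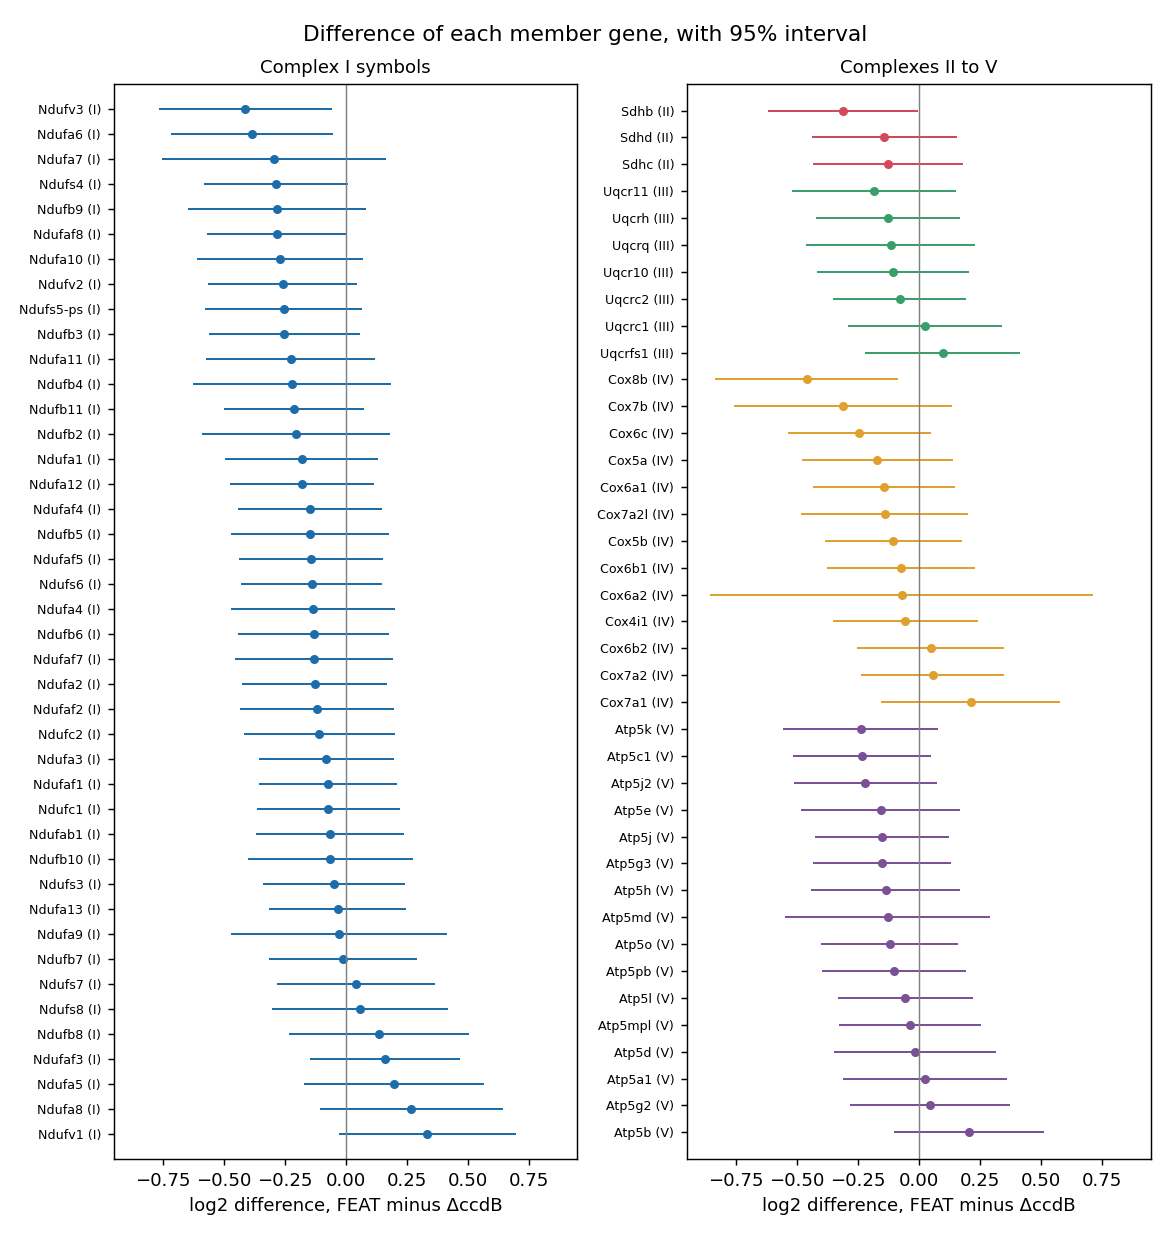
Log2 difference, FEAT minus ΔccdB (x), of each of the 81 tested member genes (y, complex in brackets), with the 95% interval of the moderated test. The left panel holds the 42 complex I symbols and the right panel the other complexes; 66 points lie left of 0, and the intervals of Ndufv3, Ndufa6, Sdhb and Cox8b do not reach 0 before adjustment.

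Complex II is the succinate dehydrogenase that also works in the tricarboxylic acid cycle. Its iron-sulfur subunit Sdhb read 11.85, 11.60 and 11.54 in ΔccdB-1 to ΔccdB-3 and 11.27, 11.44 and 11.35 in FEAT-3, FEAT-15 and FEAT-20. All FEAT clones were below all control clones, with ΔccdB-3 the nearest, at a difference of -0.31 (SE 0.14, limma, adjusted p = 0.539). The other probe of Sdhb above background gave -0.36, again with no overlap. The membrane anchors Sdhc and Sdhd, which hold the ubiquinone site, had differences of -0.13 and -0.14, and the groups overlapped for each. The flavoprotein subunit Sdha had 1 probe, with intensities of 71.9 ± 5.20 in the control clones and 71.8 ± 6.93 in the FEAT clones (SD, n = 3). These were below the background limit on every array, so no difference can be given for Sdha.

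The 7 genes of complex III stayed within -0.18 and 0.099. The small subunits Uqcr11, Uqcrh, Uqcrq and Uqcr10 had differences of -0.18, -0.13, -0.11 and -0.10, and in each the groups overlapped. Uqcr11 read 14.04, 13.97 and 13.72 in the control clones and 13.88, 13.51 and 13.79 in the FEAT clones, so ΔccdB-3 lay below 2 of the 3 FEAT clones. The core proteins Uqcrc1 and Uqcrc2, which carry no redox centre, gave 0.025 and -0.078. For Uqcrc2 the FEAT clones lay below the control clones, at 13.28, 13.37 and 13.31 against 13.39, 13.41 and 13.40, a gap that is small beside the SE of 0.12. The Rieske iron-sulfur protein Uqcrfs1 gave 0.099 on a probe above background on 1 array.

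Complex IV has subunits that come in tissue isoforms, and the widely expressed ones were the ones measured well here. Of 8 such genes 7 had a negative difference, with a median of -0.12. Cox6c, a small nuclear subunit, read 14.10, 14.03 and 13.97 in ΔccdB-1 to ΔccdB-3 and 13.92, 13.79 and 13.66 in FEAT-3, FEAT-15 and FEAT-20. The groups did not overlap, and the difference was -0.24 (SE 0.13, limma, adjusted p = 0.622). Cox7b stood at -0.31 (SE 0.20, adjusted p = 0.695), and this rested mainly on FEAT-3, at 7.00, while FEAT-15 and FEAT-20, at 7.67 and 7.84, lay among control levels of 7.94, 7.84 and 7.66. Without FEAT-3 the difference was -0.057. Cox4i1, Cox6a1, Cox6b1 and Cox7a2 gave -0.054, -0.14, -0.073 and 0.057. Cox7a2l, which helps to join complexes III and IV, gave -0.14.

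Of the 7 tissue-restricted isoforms most were at or near background. Cox4i2, Cox6b2, Cox7b2, Cox8b and Cox8c were not above the background limit on any of the 6 arrays. The difference of -0.46 for Cox8b, the heart and muscle isoform, therefore compares intensities of 85.1 ± 1.62 and 75.3 ± 7.28 (SD, n = 3) that are both below the limit, and gives no fold. Cox7a1, another muscle isoform, was above the limit on 1 control and 2 FEAT arrays. Cox6a2, the muscle isoform paired with Cox6a1, was above it on all 6 and varied most among clones. It read 7.12, 7.66 and 6.53 in the control clones and 7.73, 6.17 and 7.20 in the FEAT clones, with no order by group (difference -0.070, SE 0.36, 95% interval -0.85 to 0.71). The skeletal muscle markers with which this isoform is usually expressed were above background on all arrays for 2 of 8 genes.

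In complex V the peripheral stalk genes and those of the membrane part were mostly lower, and the head was mixed. Atp5b, the catalytic beta subunit, had intensities of 33735, 35919 and 40671 in ΔccdB-1 to ΔccdB-3 and 46337, 42094 and 39809 in FEAT-3, FEAT-15 and FEAT-20. Its log2 difference after normalization was 0.21 (SE 0.14, limma, adjusted p = 0.705), and ΔccdB-3 again lay among the FEAT clones, here on the high side. Atp5c1, the gamma subunit that turns inside the head, read 13.89, 13.91 and 13.73 against 13.60, 13.64 and 13.60. The groups did not overlap, at a difference of -0.23 (SE 0.13, adjusted p = 0.623). Atp5a1, the alpha subunit, gave 0.026 and -0.15 on its probes. All 4 peripheral stalk genes had negative differences, with a median of -0.13. In the membrane part, 6 of 7 were negative. Atp5j2 read 14.28, 14.23 and 14.09 against 14.01, 13.86 and 14.07, a difference of -0.22 (adjusted p = 0.671) with FEAT-20 just below ΔccdB-3. Atp5k gave -0.24, with overlap. Of the genes of the proton-carrying c subunit, the members held Atp5g2 and Atp5g3 and not Atp5g1. Both encode the same mature protein and gave 0.047 and -0.15, the latter with no overlap.

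**Figure D4:**
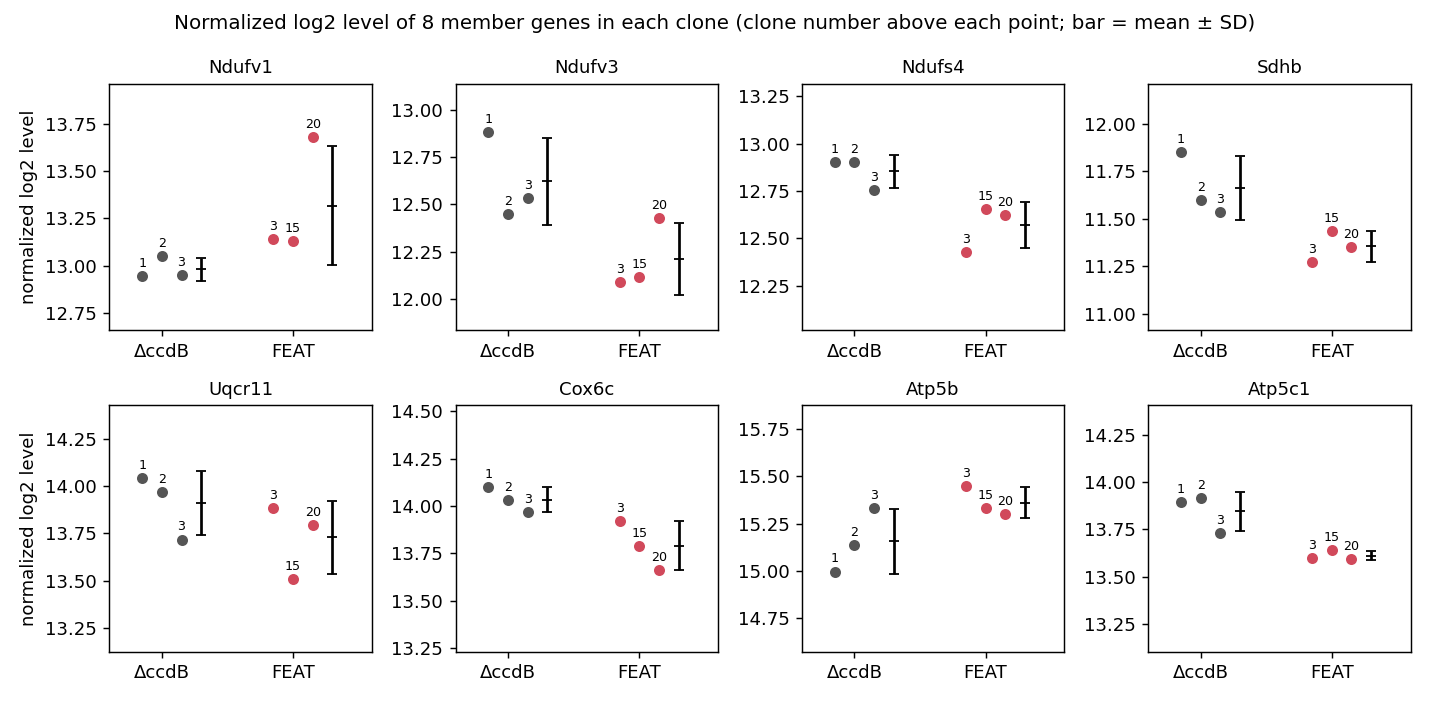
Normalized log2 level (y, the same span of 1.3 in each panel) of 8 member genes in each clone, by group (x), with the clone number above each point and the mean ± SD of the 3 clones beside it. Ndufv1 is higher and Ndufv3, Ndufs4, Sdhb, Cox6c and Atp5c1 are lower in all 3 FEAT clones, while Uqcr11 and Atp5b overlap between the groups.

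Where a gene had several probes above background on all arrays, they mostly went together. This was so for 24 genes, and in 19 of them the probes shared a sign, 17 times a negative one. The median range between probes of a gene was 0.12, and the largest was 0.39, for Atp5o, whose probes gave -0.24 to 0.14. Atp5a1, Atp5mpl, Ndufb8 and Ndufb10 also had probes of both signs.

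The other genes of oxidative metabolism were taken from lists of known members. Of 13 listed subunits encoded in mitochondrial DNA, 8 were found on the array and 7 were tested. These 7 went opposite to most nuclear ones: all had a higher mean in the FEAT clones, with a median of 0.16. Over all genes 48.4% had a lower mean. None of the 7 passed the threshold, where 0.225% of all genes did. ND4L, a membrane subunit of complex I, read 7.70, 7.00 and 7.15 in ΔccdB-1 to ΔccdB-3 and 8.21, 8.61 and 8.04 in FEAT-3, FEAT-15 and FEAT-20. Every FEAT clone was above every control clone, at a difference of 1.00 (SE 0.20, limma, adjusted p = 0.110). ATP6, the membrane subunit beside the c ring, read 12.51, 12.06 and 12.31 against 12.81, 12.78 and 12.57, a difference of 0.42 (adjusted p = 0.413) with no overlap. ND1, COX2, CYTB, ND4 and ND5 gave 0.23, 0.16, 0.11, 0.092 and 0.031 with overlapping groups. The groups thus did not overlap for 2 of the 7 (28.6%), both higher, against 7.95% of all genes in that direction. The median of the 7 genes stood at 0.067, -0.11 and 0.014 in the control clones and 0.21, 0.22 and 0.10 in the FEAT clones, with no overlap. Whether the nuclear and mitochondrial genes differ from each other was not tested.

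**Figure D5:**
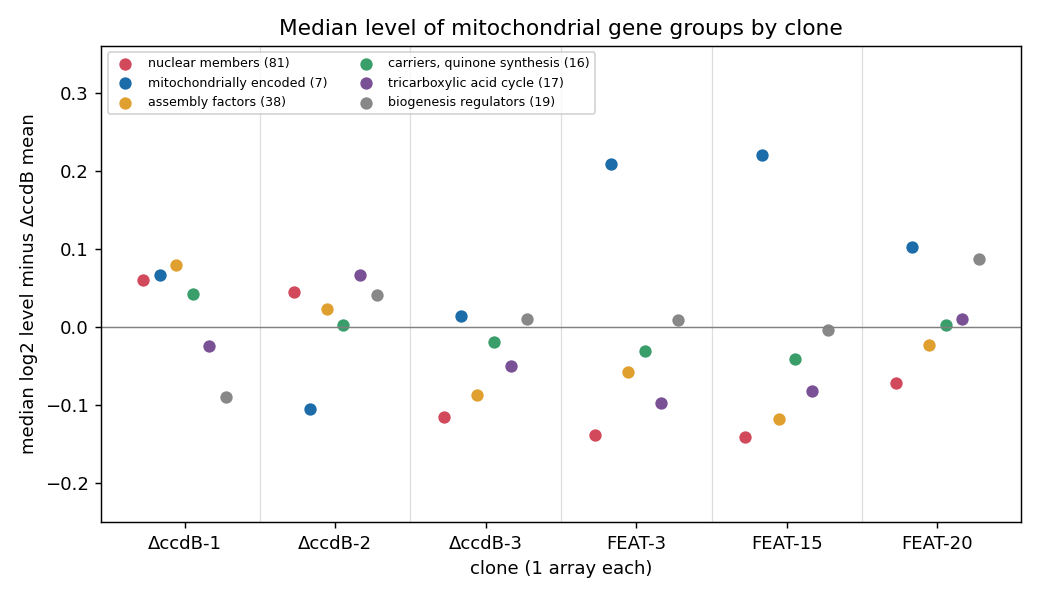
Median log2 level minus the ΔccdB mean (y) of 6 groups of genes in each clone (x), with the number of tested genes in brackets. The nuclear members lie lowest in FEAT-3 and FEAT-15, at -0.14, and the mitochondrially encoded subunits highest there, at 0.21 and 0.22.

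No gene of the remaining lists passed the threshold (limma, adjusted p), where 0.225% of all genes did. Their medians lay nearer 0 than that of the members. Assembly factors outside the rule had a median of -0.080 over 38 genes, with 25 lower, and of -0.034 without ΔccdB-1. The lowest p was that of Cmc1, a copper-site assembly protein of complex IV, at -0.36 (adjusted p = 0.424), followed by Cox19 at -0.30. A list of carriers, channels and quinone synthesis genes had a median of -0.054 over 16 genes. Its lowest p was that of Coq3, a quinone synthesis enzyme, at -0.26, with -0.077 as the mean of its probes. The list also holds Cyc1, cytochrome c1, which is a catalytic subunit of complex III that the symbol rule does not take, at -0.21, or -0.10 without FEAT-20. Tricarboxylic acid cycle genes had a median of -0.086 over 17 genes, and Fh1, fumarase, stood at -0.16. Idh3a, an isocitrate dehydrogenase subunit, stood at 0.36, but at 0.20 as the mean of its probes and at 0.24 without ΔccdB-1. Leaving out ΔccdB-2 turned the list's median to 0.048, and leaving out FEAT-3 took it to -0.013.

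Regulators of mitochondrial biogenesis had a median of 0.025 over 19 genes, 10 of them higher, and their leading members went opposite ways. Pprc1, a growth-responsive coactivator of the PGC-1 family, read 10.56, 11.13 and 11.18 in ΔccdB-1 to ΔccdB-3 and 11.51, 11.45 and 11.84 in FEAT-3, FEAT-15 and FEAT-20. Its difference was 0.64 (SE 0.18, limma, adjusted p = 0.269). Ppargc1b, another coactivator of that family, read 8.35, 8.93 and 8.63 against 8.22, 8.03 and 8.08, a difference of -0.53 (SE 0.16, adjusted p = 0.307). In both genes the groups did not overlap. Over the list they did not overlap for 4 of 19 genes, 2 higher and 2 lower in the FEAT clones. This is 10.5% in each direction, against 7.95% of all genes higher and 7.24% lower. Nrf1, the factor whose motif was counted in the promoters, stood at 0.35 (adjusted p = 0.465), again with no overlap, and Gabpa at -0.017.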

How the data were processed

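The deposited values were linear probe intensities, 1 table per array with 45281 probes, made with BeadStudio per the submitters' processing notes; the notes give no version. They held no detection p, and the lowest value of an array was 50.1 to 53.1. The authors' value table of the series holds the same intensity values times 1 factor per array (0.925 to 1.10), with medians of 81.6 to 92.6, and served as an alternative. With R 4.3.3 and limma 3.58.1, intensities were background-corrected (normexp, offset 16), quantile-normalized and put on the log2 scale. This stood in for the planned neqc, which needs detection p. The 60% of probes with the highest mean (27169) were tested with lmFit and eBayes, two-sided, on 3 against 3 clones, with Benjamini-Hochberg adjustment and a threshold of 0.05. An exact permutation test of 3 against 3 cannot go below 0.1. The brightest tested probe stood for a gene. The background limit lay 3 SDs, taken from the values under the mode of an array's log2 intensities, above that mode. Groups came from the sample titles. P-values measure the spread between single clones, and array number limits precision.

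Symbols came from the GEO platform annotation; probe sequences were not used. The list of mitochondrially encoded genes was matched by its RefSeq symbols. Printed sequences are promoter windows from RefSeq. For printing, the rule took, among members with a RefSeq window and above background on all arrays, the one with the smallest p of each complex and the one with the highest difference. Cox6c had no window, so Cox7b stood for complex IV; windows of Ndufv3 and Cox7b and another window of Atp5c1, none with a motif, were left out.

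Genes were named by a rule: any member past the threshold, the 4 with the smallest p per complex, isoform families, Sdh genes, members at background, and 2 per other list. Further members, such as Ndufv1, were named after their values were seen. Members, lists and rule were chosen with earlier results of these data known. The steps were tested on simulated data. Alternatives covered correction, scaling, filter, variance model, probe choice, symbols and leaving out each clone.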

Additional observations from a re-analysis of the deposited data

How the results depend on the processing

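In 10 alternatives of correction, scaling, filter, variance model, probe choice and symbols, and in 6 omissions of a clone, limma called 0 members and 0 genes of the other lists. The members' median stayed between -0.13 and -0.12 in the former and between -0.18 and -0.081 in the latter, with 61 to 73 of 81 members lower in the omissions. Over all probes, the count called was 50, between 38 and 68 in other settings and between 0 (without ΔccdB-1) and 157 (without ΔccdB-2) with a clone left out. The median of carriers ranged from -0.11 to -0.0046 over omissions, that of the tricarboxylic acid cycle genes from -0.085 to 0.048 and that of the biogenesis regulators from -0.057 to 0.10. That of assembly factors ranged from -0.11 to -0.034. Of all 81 tested members, 20 changed sign in at least 1 omission of a clone, and 4 of these, Atp5a1, Atp5mpl, Ndufb7 and Ndufb8, also in another setting. Among the 20 are Atp5g2, Cox4i1, Cox6a2, Cox7a2, Ndufs3, Ndufs7, Ndufs8, Uqcr10, Uqcrc1 and Uqcrfs1. The sign count over all members was added after seeing the data. With the background limit at 2 SDs 77 members were above it in place of 76. Settings that need a detection p or a slide were not run, since the tables used here hold neither. No paired analysis was possible because the groups share 1 clone number, which only names a line. The median SE of 0.14 on the log2 scale limits what a single member can show with this number of arrays.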
